A study of Homo sapiens with 192 samples.

Results

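Zinc finger genes of chromosome 19 were examined in the chromatin of HAP1 cells. The 240 members were the GENCODE protein-coding genes of chromosome 19 whose symbol is ZNF followed by a number, out of 20033 protein-coding genes in all. They were set beside the 1236 other protein-coding genes of chromosome 19 and, for the gene family, beside 236 genes named ZNF and a number on other chromosomes. HAP1 is an adherent, near-haploid human cell line derived from a chronic myeloid leukemia line, and all nuclei came from this 1 line. In the plate-based single-nucleus ATAC-seq (snATAC-seq), Tn5 transposase cut open chromatin in bulk nuclei, and single nuclei were then sorted into 2 plates of 96 wells. Nuclei carrying a CASB barcode, a DNA tag attached through concanavalin A, had been pooled with untagged nuclei, no other treatment was given, and which nuclei were tagged was not used here. Each plate was therefore 1 mixed sample, and no test or p-value was computed from nuclei or genes. Intervals given below are exact 95% intervals and cover counting error only.

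Most ZNF genes of chromosome 19 encode KRAB zinc finger proteins. Their arrays of C2H2 fingers bind DNA, often within transposable elements, and the KRAB domain recruits TRIM28 (KAP1), which brings the histone methyltransferase SETDB1 and heterochromatin protein 1 to the site. The genes arose by tandem duplication and lie in clusters along the chromosome, among them a primate-expanded cluster on the short arm next to the centromere. The finger array is usually encoded by a single large last exon. In many cell types the 3′ ends of these genes carry the repressive mark H3K9me3 while their promoters remain open.

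The deposited table held counts of read pairs in 80971 features, which are peak regions of equal width called on all cells together, and 931 of these lay on chromosome 19. Over both plates, 162 cells had more than 300 peaks and are called passing nuclei, 83 of plate 1 and 79 of plate 2. They held between 345 and 15351 read pairs each. A feature was called seen in a nucleus when it had at least 1 read pair, and 83.3% of the detections at ZNF gene starts rested on a single pair. A gene with no feature near its start had no value in the table, so nothing is said about whether its promoter was closed. Within each plate, cells numbered 37 to 48 shared peaks with cells 73 to 84, and cells 73 to 84 with cells 85 to 96, beyond what other wells did, and 71 of the 162 passing nuclei came from these paired wells. Results are therefore given with and without them. Of 6 hematopoietic genes, namely PTPRC, CD34, GATA1, SPI1, TAL1 and ITGAM, 0 had a feature within 1000 bp of the gene start. Of 6 genes of the adherent state 4 did, namely VIM, YAP1, CAV1 and CCN1, while CALD1 and TPM1 did not. Among protein-coding genes of other chromosomes that are not ZNF genes, 49.1% had one, and nothing is read from these counts.

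Promoter sequences of named members are shown first. RefSeq (GRCh38.p14) held a promoter entry for 210 of the 240 genes, and for 181 of them it lay within 1000 bp of the GENCODE start. The first 3 lines below show the 150 bases before the RefSeq start of the ZNF genes seen in the most nuclei, and the last 2 lines show named genes without a promoter feature. All are written 5′ to 3′ on the strand of the gene. Capitals mark CCAATCA, which holds a CCAAT box, and CCGGAAG or its reverse complement CTTCCGG, a core bound by ETS factors.
ZNF724 (chr19:23250395-23250544, minus strand): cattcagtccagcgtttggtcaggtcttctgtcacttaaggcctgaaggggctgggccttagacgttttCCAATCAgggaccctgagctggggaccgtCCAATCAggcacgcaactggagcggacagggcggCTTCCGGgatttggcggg
ZNF492 (chr19:22634174-22634323, plus strand): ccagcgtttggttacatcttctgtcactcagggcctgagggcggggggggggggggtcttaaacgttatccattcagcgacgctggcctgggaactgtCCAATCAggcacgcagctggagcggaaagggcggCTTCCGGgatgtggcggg
ZNF91 (chr19:23395472-23395621, minus strand): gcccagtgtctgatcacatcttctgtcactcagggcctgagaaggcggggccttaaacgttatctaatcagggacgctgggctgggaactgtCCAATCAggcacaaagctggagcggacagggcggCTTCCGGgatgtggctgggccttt
ZNF93 (chr19:19900796-19900945, plus strand): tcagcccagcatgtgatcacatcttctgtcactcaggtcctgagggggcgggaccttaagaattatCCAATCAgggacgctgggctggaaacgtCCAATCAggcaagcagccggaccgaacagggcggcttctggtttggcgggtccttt
ZNF568 (chr19:36916182-36916331, plus strand): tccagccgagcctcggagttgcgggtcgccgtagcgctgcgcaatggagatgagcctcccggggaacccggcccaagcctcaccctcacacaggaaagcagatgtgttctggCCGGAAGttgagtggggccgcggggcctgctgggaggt

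ZNF724, ZNF492, ZNF91 and ZNF93 all lie in the cluster next to the centromere, and their promoters resembled each other. Over the 250 bases before the start, global alignment gave 78.2% identity between ZNF724 and ZNF91 and 83.1% between ZNF93 and ZNF91. ZNF568, from a cluster on the long arm, had 49.8% identity with ZNF91. The nearest CCAATCA lay 52 bases before the start of ZNF724 and ZNF492 and 58 bases before that of ZNF91, with CTTCCGG at 18, 18 and 24 bases. ZNF93 had CCAATCA at 84 and 56 bases before the start and no match to CCGGAAG on either strand in the stretch shown.

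Promoter features were found at 94 of the 240 ZNF genes, or 39.2% (interval 32.95 to 45.65). A promoter feature was any feature whose interval came within 1000 bp of the gene start. Among the other genes of chromosome 19 the share was 24.6% (22.2 to 27.1, 304 of 1236), so the 2 intervals did not overlap. ZNF genes of other chromosomes had a promoter feature in 64.4% of cases (57.9 to 70.5, 152 of 236). Of the 18321 remaining protein-coding genes of other chromosomes, 8993 had one (49.1%, 48.4 to 49.8). Chromosome 19 as a whole had the second lowest share among the 23 chromosomes compared, 26.96% of its protein-coding genes. The ZNF genes of chromosome 19 thus stood above their neighbours, and below both their family and the remaining genes of other chromosomes.

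Both plates gave the same order. In plate 1, 90 ZNF genes had a promoter feature seen in at least 1 passing nucleus (37.5%, 31.36 to 43.96), and in plate 2, 80 genes did (33.3%, 27.4 to 39.7). For the other genes of chromosome 19 the shares were 22.4% and 21.7%. Of the 94 genes, 76 were seen in both plates, 14 only in plate 1 and 4 only in plate 2. Without the paired wells, 82 ZNF genes (34.2%) and 260 other genes of chromosome 19 (21.04%) had a promoter feature seen.

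**Figure D1:**
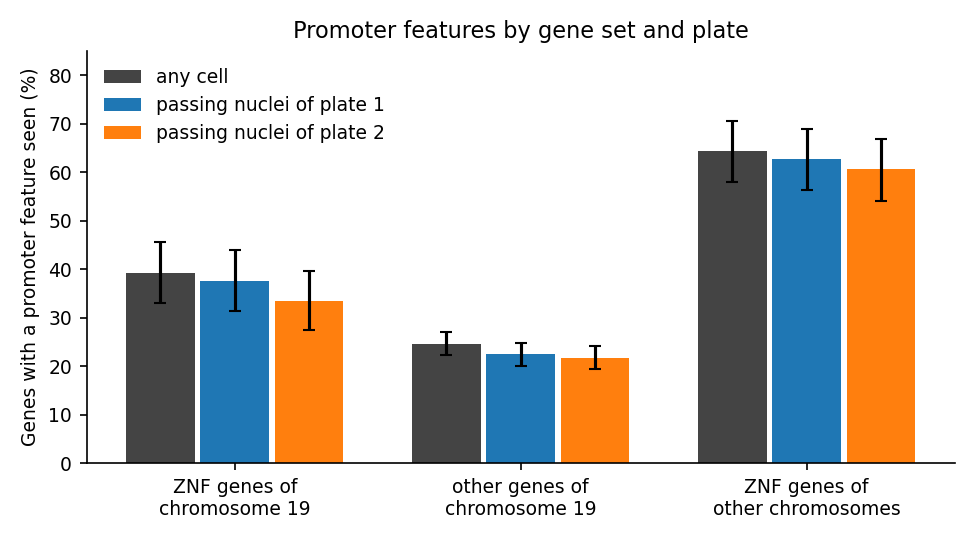
Share of genes (y axis, percent) with a promoter feature in any cell, in passing nuclei of plate 1 and in passing nuclei of plate 2, for 3 gene sets. Error bars are exact 95% binomial intervals over genes, and the ZNF genes of chromosome 19 (39.2%) sit between their neighbours (24.6%) and the ZNF genes of other chromosomes (64.4%).

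The features lay on the starts themselves. Over 104 pairs of a gene and a promoter feature, the median distance of the feature center from the gene start was 152.5 bp, and 81.7% of the starts lay inside the feature. The center was upstream of the gene in 52 pairs, in a noncoding exon in 28, in an intron in 23 and in a coding exon in 1. In the first kb upstream, ZNF genes had a mean of 1.16 nuclei per gene, and in the first kb downstream 1.04. In the next kb outward the means were 0.00417 upstream and 0.0708 downstream. The other genes of chromosome 19 also had most detections beside the start, at 0.875 upstream and 0.423 downstream. In the next kb outward they had 0.0769 and 0.112. Of the 94 genes, 59 had features that were near no other gene start, 17 shared them with a noncoding gene, and 18 with another protein-coding gene, of which 6 shared them with another ZNF gene. For the 18, the signal cannot be divided between the genes.

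**Figure D2:**
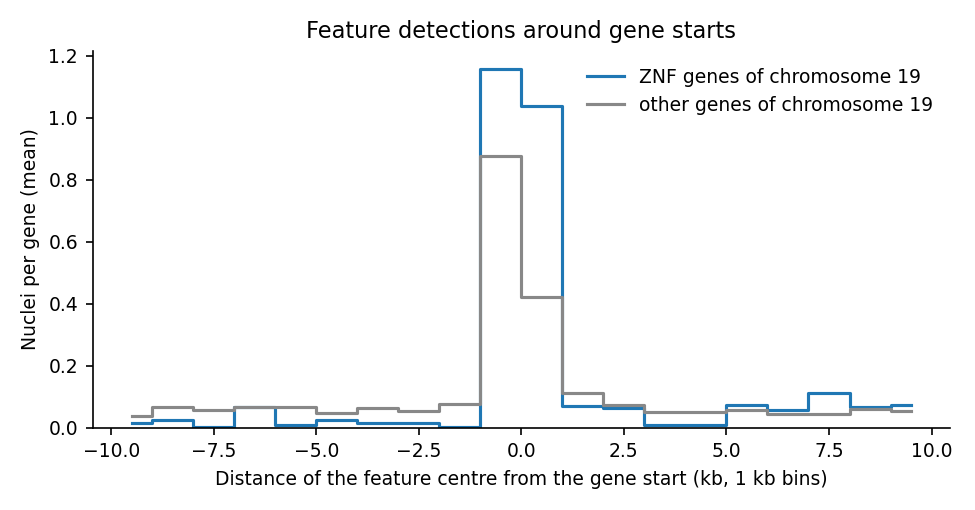
Mean number of passing nuclei per gene with a feature seen (y axis) against the distance of the feature center from the gene start in 1 kb bins (x axis, kb, negative values upstream), for ZNF genes and other genes of chromosome 19. Detections of ZNF genes concentrate in the 2 bins beside the start, at 1.16 and 1.04 nuclei per gene.

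Regional base composition differed between the gene sets, and the order of both sets of chromosome 19 held within the 2 middle classes of GC content. ZNF genes of chromosome 19 lie in regions of lower GC content, with a median of 43.8% over the 100 kb around the start, against 52.5% for the other genes of the chromosome. Among genes in regions of 40 to 45% GC, 54 of 146 ZNF genes had a promoter feature (37.0%, 29.2 to 45.4), and 13 of 100 other genes did (13%, 7.11 to 21.2). In regions of 45 to 50% GC the shares were 43.5% (28.9 to 58.9, 20 of 46) and 12.9% (8.65 to 18.2, 27 of 210). In regions of 50% GC and over the shares were 35.5% (19.2 to 54.6) and 28.6% (25.7 to 31.6), and the intervals overlapped. ZNF genes of other chromosomes in regions of 40 to 45% GC had a promoter feature in 67.5% of cases (58.14 to 76.01), above the members at the same GC content. In the other 3 classes their shares were also higher, but the intervals overlapped: 72% (50.6 to 87.9) against 52.9% (27.8 to 77.02) under 40% GC, 68.4% (54.8 to 80.1) against 43.5% at 45 to 50%, and 45% (29.3 to 61.5) against 35.5% at 50% and over.

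**Figure D3:**
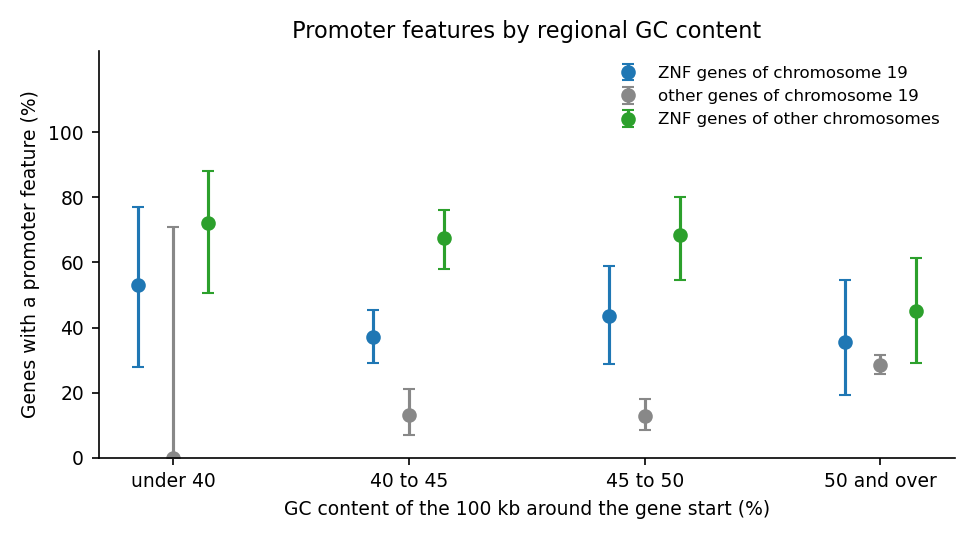
Share of genes with a promoter feature (y axis, percent) by GC content of the 100 kb around the gene start (x axis, 4 classes), with exact 95% binomial intervals. Between 40 and 50% GC the ZNF genes of chromosome 19 lie above the other genes of the chromosome, and in the class of 50% and over the intervals of both overlap.

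Promoter signal per gene was low. The median over the 240 ZNF genes was 0% of passing nuclei, since 146 genes had no promoter feature, and the median was also 0% for the other genes of chromosome 19. The mean was 2.02 nuclei per ZNF gene, 1.28 per other gene of chromosome 19 and 6.96 per ZNF gene elsewhere. It was 5.21 per remaining gene of other chromosomes. Of the members, 47 were seen in at least 5 nuclei (19.6%, beside 12.7% of the other genes of chromosome 19). At least 10 nuclei were reached by 11 members (4.58%, beside 1.86%). For ZNF genes elsewhere these 2 shares were 50.4% and 30.9%, and for the remaining genes of other chromosomes 38.9% and 21.7%. With every nucleus thinned to 600 read pairs, which left 146 nuclei, the mean was 0.320% of nuclei for ZNF genes and 0.189% for their neighbours.

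ZNF724 had the highest level. Its single promoter feature was seen in 17 of 162 passing nuclei (10.5%, 6.23 to 16.3), 12 in plate 1 and 5 in plate 2. The gene spans positions 23221599 to 23250394 of chromosome 19 (hg38, minus strand). ZNF492 followed with 12 nuclei, 8 in plate 1 and 4 in plate 2. ZNF91, whose protein represses SVA and other retroelements, was seen in 11 nuclei, 8 in plate 1 and 3 in plate 2. The intervals of these 3 genes overlapped (3.89 to 12.6 for ZNF492 and 3.44 to 11.8 for ZNF91), so their order was not resolved at this depth. The next 7 genes, ZNF443, ZNF431, ZNF738, ZNF493, ZNF100, ZNF675 and ZNF726, were each seen in 10 nuclei, and ZNF254 was tied with them. Of these, ZNF493 and ZNF675 had 5 nuclei in each plate, and ZNF100 and ZNF726 had 8 in plate 1 and 2 in plate 2. Without the paired wells, 91 nuclei were left, and the order among these genes changed. ZNF724 was then seen in 8 of them, ZNF100 in 7, ZNF492 in 6 and ZNF493 in 5. ZNF443, ZNF431, ZNF738 and ZNF675 were seen in 4 each, ZNF726 and ZNF254 in 3 each, and ZNF91 in 2. The 2 promoter features of ZNF443 also lay near the start of another protein-coding gene.

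Several genes of known function had few detections or no promoter feature. ZNF808, required for pancreas development, was seen in 1 nucleus of plate 1 and 4 of plate 2. ZNF331, an imprinted gene, was seen in 1 nucleus of plate 1 and 3 of plate 2. ZNF350 was seen in 1 nucleus, in plate 2. No promoter feature was listed for ZNF93, whose protein represses LINE-1 elements, for ZNF274, which brings SETDB1 to the 3′ ends of ZNF genes, or for ZNF224, ZNF568 and ZNF649. The 5 longest members without a promoter feature were ZNF98, ZNF420, ZNF568, ZNF577 and ZNF573. For 1 of these, ZNF420, a feature seen in 6 nuclei, 3 in each plate, lay at another annotated transcript start 70.6 kb into the gene. Among all 146 members without a feature at the gene start, 18 had a feature at another annotated start.

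Position along the chromosome separated the members. When genes with starts no more than 500 kb apart were joined, the 240 genes formed 20 runs, numbered from the end of the short arm. Run 6, from ZNF101 to ZNF254 at 19.67 to 24.03 Mb, is the cluster next to the centromere. Its 37 genes had a mean of 4.14 nuclei per gene, against 1.63 for the 203 genes of the other runs. It held 10 of the 11 genes seen in at least 10 nuclei, the other being ZNF443 of run 4. Without cells 79 and 80 of plate 1, it held 5 of 6 such genes, and without the paired wells no member reached 10 nuclei. Within run 6 the genes fell apart: 15 were seen in at least 5 nuclei, 3 in between 1 and 3 nuclei, counting ZNF14, ZNF737 and ZNF714, and 19 had no promoter feature, among them the consecutive genes ZNF43, ZNF208, ZNF257, ZNF676, ZNF729 and ZNF98. Apart from ZNF98, these genes were named after their values were seen.

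The share of genes with a promoter feature also varied between the runs. In run 10, from ZNF146 to ZNF573 at 36.2 to 37.8 Mb, 16 of 24 genes had one (66.7%, 44.7 to 84.4), and no gene was seen in more than 6 nuclei. In run 6 the share was 48.6% (31.9 to 65.6, 18 of 37). Run 18, from ZNF175 to ZNF331 at 51.6 to 53.5 Mb, had 8 of 39 genes with a feature (20.5%, 9.30 to 36.5). Run 20, the last, from ZNF264 to ZNF446, had 13 of 41 (31.7%, 18.1 to 48.1). The intervals of run 10 and run 18 did not overlap, and those of run 6 and run 10 did. Genes of other kinds inside the bounds of run 10 had a feature in 3 of 8 cases and inside those of run 18 in 3 of 15.

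**Figure D4:**
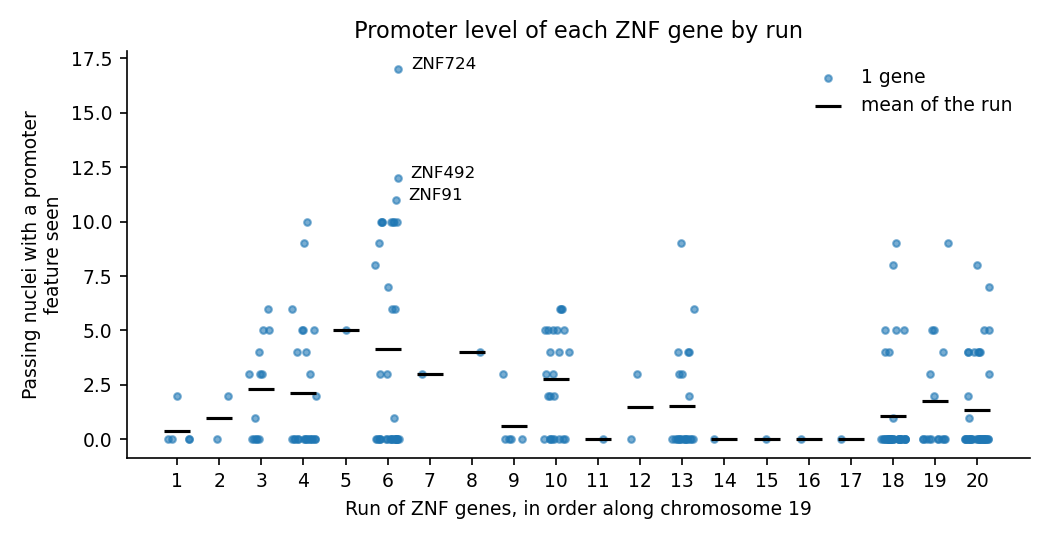
Number of passing nuclei with a promoter feature seen (y axis) for each of the 240 ZNF genes, by run in order along chromosome 19 (x axis, shifted sideways for display), with a dash at the mean of each run. Run 6 holds ZNF724, ZNF492 and ZNF91 and has a mean of 4.14 nuclei per gene.

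Several short words, which the choice of members did not use, were more or less frequent in ZNF promoters than in others. CCGGAAG, searched with its reverse complement CTTCCGG, was held by 83 of the 181 ZNF promoters (45.9%), by 14.3% of those of the other genes of chromosome 19 and by 10.3% of all 35116 promoters in the table, which also holds noncoding genes. ZNF promoters of other chromosomes held it in 36.1% of cases. CCAATCA, with TGATTGG on the other strand, was held by 55 of 181 (30.4%), against 8.69% and 6.95%. ACTACA, with TGTAGT on the other strand, was held by 26.5%, against 6.79% and 8.46%. TATAAA, with TTTATA on the other strand, was held by 2.21%, against 7.86% and 11.5%. ZNF promoters of other chromosomes held these last 3 words in 18.7%, 10.8% and 4.82% of cases. GGGCGG, with CCGCCC on the other strand, was held by 70.2% of the members (62.9 to 76.7) and 66.7% of the other genes of chromosome 19 (63.4 to 69.9), so the intervals overlapped, and by 44.95% of all promoters. Every CCAATCA match also holds the shorter CCAAT, which was held by 54.1% of the members, 37.9% of the other genes of chromosome 19 and 34.6% of all promoters.

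Run 6 and the other runs differed in these words. All 25 promoters of run 6 with an entry held CCAATCA, and 18 also held CCGGAAG, while 30 of 156 promoters of the other runs held CCAATCA (19.2%) and 6 held both. ACTACA was held by 0 of 25 promoters of run 6 and by 48 of 156 of the others (30.8%). The median ratio of observed to expected CpG was 0.436 in run 6 and 0.786 in the other runs. Pairs of promoters within run 6 had a median identity of 76.8%, pairs within the other runs 51.2% and pairs from different runs 50.0%. Of the 300 pairs within run 6, 176 reached 75% identity, and these promoters are copies that cannot be counted as independent.

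Of the 83 ZNF promoters with CCGGAAG, 38.6% had a feature (28.1 to 49.9), and of the 98 without it 46.9% did (36.8 to 57.3). The intervals overlapped, so no difference was resolved. With CCAATCA, 49.1% of ZNF promoters had a feature (35.4 to 62.9), and without it 40.5% did (31.8 to 49.6). These intervals also overlapped. Outside run 6, whose promoters with an entry all held CCAATCA, 12 of 30 promoters with it had a feature (40%, 22.7 to 59.4). Without it 51 of 126 did (40.5%). Among the other genes of chromosome 19 the shares were 44.2% (35.1 to 53.5) with CCGGAAG and 23.6% (20.6 to 26.9) without it, and 43.8% (32.2 to 55.9) with CCAATCA and 24.9% (21.9 to 28.1) without it. In run 6, CCGGAAG was held by 11 of the 15 promoters with a feature and by 7 of the 10 without one. All 10 of those without a feature held CCAATCA. By level, run 6 promoters with CCGGAAG had a mean of 5.94 nuclei (18 promoters), and those without it 2.43 (7 promoters). In the other runs the order was reversed, at 1.55 with it and 2.02 without it. No interval was computed for these means.

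Reads that align to several places were largely removed before counting, so the uniqueness of the sequence was measured. Within 1000 bp of the start, a median of 2.84% of the 50-base words of ZNF genes occurred more than once in the genome, against 2.00% for the other genes of chromosome 19. The median was 2.77% for the 94 ZNF genes with a promoter feature and 3.07% for the 146 without one. In run 6 it was 5.12%. The highest share among members, 34.5%, was that of ZNF28, named for this value and seen in 5 nuclei. Over whole gene bodies the median was 7.56% for ZNF genes and 7.04% for the other genes of chromosome 19. Last exons were not measured apart. These shares count exact repeats only, and near-identical copies can also take reads from each other.

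Gene bodies of the members held few features. Away from every protein-coding gene start by more than 1000 bp, 62 features had their center in a member, and 44 genes held at least 1. The density was 0.849 features per 100 kb of gene body (0.656 to 1.08), against 1.29 (1.17 to 1.43) in the other genes of chromosome 19 and 2.19 (1.91 to 2.49) in ZNF genes elsewhere. The center was in an intron for 56 of 65 pairs of a gene and a feature, in a noncoding exon for 5 and in a coding exon for 4. Of the 62 features, 25 were seen in exactly 2 cells, and in 19 of these the cells were a pair of the wells that share peaks. These 19 were 30.6% of the members' body features, near the 32.7% (116 of 355) in the other genes of chromosome 19. With features seen in at least 5 cells, the order turned, at 0.261 per 100 kb for ZNF genes and 0.187 for the other genes. Counting only features seen in a cell outside the paired wells, the densities were 0.497 and 0.663. Over all genes pooled, a lower density in the members was thus seen only when features of fewer than 5 cells were counted. Within classes of regional GC content, with all these features counted, the members were not lower from 40% GC upward. Members had 0.749 per 100 kb at 40 to 45%, against 0.657, and 1.09 at 45 to 50%, against 1.05. At 50% and over they had 2.07 against 1.48, and under 40%, with 17 and 3 genes, 0.150 against 0.806. No interval was computed for these classes.

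ZNF536, a long member expressed in the nervous system and lying alone in run 7, held 10 of the body features over 489 kb. All 10 were intronic, and 3 overlapping or adjoining ones 438 to 439 kb from its start were seen in 6, 7 and 2 nuclei. ZNF333 held 4 body features, each seen in 2 nuclei, and for 3 of them both nuclei were a pair of wells that share peaks. ZNF429, without a promoter feature, held 3, and 1 of these, 9.21 kb from its start, was seen in 4 nuclei of each plate. It lay near another annotated transcript start of the gene. ZNF675 and ZNF254 held 2 each. The body feature seen in the most nuclei lay in an intron of ZNF254, 53.6 kb from its start, and was seen in 8 nuclei of plate 1 and 5 of plate 2. Without ZNF536 the density of the members was 0.768 per 100 kb.

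The last exons, which encode the finger arrays, held few features. The median last exon of the members was 3177.5 bp long. Over 832 kb of last exon, 4 features overlapped, 1 each in ZNF333, ZNF347, ZNF580 and ZNF726, and the density was 0.481 per 100 kb (0.131 to 1.23). The remainder of the gene bodies had 0.894 per 100 kb (0.684 to 1.15), and the intervals overlapped. Counted by the feature center alone, so that exon length does not enter, the last exons held 0.361 per 100 kb in ZNF genes and 1.26 in the other genes of chromosome 19, from 3 and 17 features. No interval was computed for these center counts.

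In single nuclei, ZNF promoters were seen unevenly. A median of 1 member was seen per passing nucleus in each plate, and 49 nuclei (30.2%) had none. The rank correlation (Spearman) of members seen with read pairs per nucleus was 0.522. It was 0.742 for the other genes of chromosome 19 and 0.897 for ZNF genes elsewhere. The 2 nuclei with the most, cells 80 and 79 of plate 1, had 36 and 31 members seen, 16 of them in both. They were deep, with 12449 and 8512 read pairs against a median of 2067.5 over passing nuclei. They also had 74 and 64 other genes of chromosome 19 seen, against a median of 5. These 2 nuclei held 13.8% of all 484 detections of members, against 9.19% of the detections at other chromosome 19 starts and 4.69% of those at ZNF genes elsewhere, in each case for the 2 highest nuclei of that gene set. The 10 highest nuclei held 36.6% of the member detections, and the same share, for the 10 highest nuclei of each gene set, was 31.8% at other chromosome 19 starts and 19.7% at ZNF genes elsewhere. The share of a nucleus's read pairs on chromosome 19 ranged from 0 to 4.46%, with a median of 0.608%, and was 1.98% in cell 80 and 2.69% in cell 79. Both cells are in the paired wells.

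**Figure D5:**
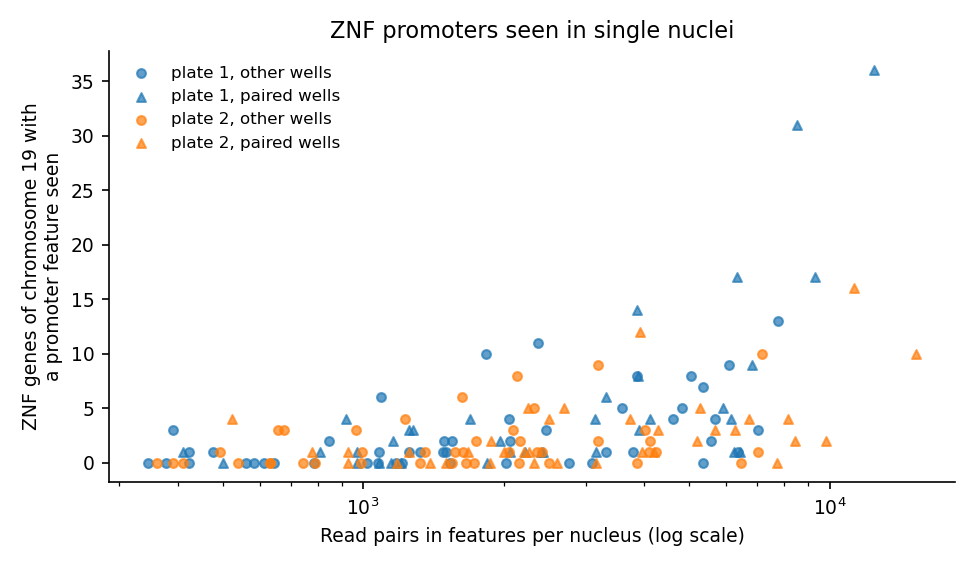
Number of ZNF genes of chromosome 19 with a promoter feature seen (y axis) against read pairs in features (x axis, log scale) for each of the 162 passing nuclei, by plate and by whether the well is a paired well. Cells 80 and 79 of plate 1, at 36 and 31 members, stand above the other nuclei, and 49 nuclei lie at 0.

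Members were seen more often in plate 1, and part of the difference lay in a few wells. The mean over the 240 genes was 1.55% of nuclei in plate 1 and 0.923% in plate 2, a ratio of 1.68. For the other genes of chromosome 19 the ratio was 1.18 and for ZNF genes elsewhere 0.990. Without the paired wells the ratio for members was 1.45 (1.07% and 0.736%), and without cells 79 and 80 of plate 1 it was 1.35. The 35 passing nuclei in paired wells of plate 1 had a mean of 5.31 members seen, against 2.56 in the other wells of plate 1, 2.75 in paired wells of plate 2 and 1.77 in its other wells. The median share of read pairs on chromosome 19 in those 4 sets was 1.03%, 0.512%, 0.564% and 0.570%. With 1 mixed sample per plate, a difference between plates cannot be told apart from one between wells.

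Across all protein-coding promoters, 20.2% of the 3627 features seen in at least 10 passing nuclei differed at least 2-fold between plates, a rule of size with no test. Of 12 such features of members 6 passed it, all higher in plate 1, those of ZNF738, ZNF100, ZNF724, ZNF91, ZNF726 and ZNF254. With so few features, nothing is read from the excess over the share among all promoters. Without cells 79 and 80, 2 of the 7 remaining features passed, beside 21.4% of all promoter features. Without the paired wells, none of the members' features reached 10 nuclei. The largest differences in share of nuclei were at ZNF563, seen in 8 nuclei of plate 1 and 1 of plate 2, at ZNF724, and at ZNF226, seen in 6 nuclei of plate 1 and 0 of plate 2. Without the paired wells ZNF563 had 4 and 0 nuclei, ZNF724 6 and 2, and ZNF226 3 and 0.

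The higher level of run 6 remained without these wells, at a lower value. Over all passing nuclei its genes were seen in a mean of 2.55% of nuclei, against 1.01% for the other runs. Without the paired wells the means were 1.72% and 0.763%, and without cells 79 and 80 of plate 1 they were 2.23% and 0.877%. Run 6 was above the other runs in both plates, at 3.32% and 1.23% in plate 1 and 1.74% and 0.773% in plate 2.

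Among genes whose proteins work with KRAB zinc finger proteins or in the same silencing pathways, 9 had a promoter feature. Of the protein-coding genes of other chromosomes that are not ZNF genes, 49.1% had one. On chromosome 19, where TRIM28, DNMT1 and UHRF1 lie, the share among such genes was 24.6%. Nothing is read from the count of 9. TRIM28, the corepressor bound by the KRAB domain and itself a gene of chromosome 19, was seen in 8 nuclei (4.94%, 2.16 to 9.50), 6 in plate 1 and 2 in plate 2. SETDB1, the methyltransferase it recruits, was seen in 5 nuclei (3.09%). Of the heterochromatin protein 1 genes, CBX5 was seen in 9.88% of nuclei, CBX3 in 5.56% and CBX1 in 3.09%. MPHOSPH8, of the HUSH silencing complex, was seen in 7.41%, and the chromatin remodeler ATRX in 10.5%. HDAC2 and ATF7IP were seen in 6.17% each. No feature was listed at the gene start of CHD3, CHD4, HDAC1, MORC2, TASOR, PPHLN1, DNMT1, UHRF1, DAXX and SUMO2, which include genes that most cells use. ZNF724, at 10.5%, was at the level of ATRX.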

How the data were processed

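Plate-based snATAC-seq of HAP1 cells was analysed from the deposited table. As the methods state, the authors trimmed the reads, aligned them to hg38, removed reads of low mapping quality and duplicates, ran MACS2 once over the pooled cells, and extended each peak from its summit. For every feature, the table deposited by the authors gives the number of pairs in each cell as unnormalized counts from featureCounts (version 1.6.0). No column was left over. Here, counts were binarized, features seen in at least 2 cells were used to pass cells with more than 300 peaks, and features were assigned to genes of GENCODE 44 with Python (version 3.11.15), pysam (version 0.24.0) and Biopython (version 1.88). Starts were the 5′ ends of genes. Intervals were exact (Clopper-Pearson for shares, Poisson for densities, scipy version 1.17.1). Counts of 0 at genes without a feature carry no limit. The functions were tested on simulated data. The members, lists and short sequence words were chosen with earlier results of these data known. Named genes were the 10 seen in the most nuclei, the 5 longest without a promoter feature, the 5 with the most body features, the 3 with the largest difference between plates, and genes of known role, with ties in genome order. Alternatives covered the promoter window, the start used, filters on features and cells, depth and the gap between runs. Protein sequences and the content of zinc fingers were not analysed here. A gene of the list of silencing partners is not reported here.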

Additional observations from a re-analysis of the deposited data

How the results depend on the processing

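Over 65 alternatives for the members' results, 47 changed a value by no more than its counting interval or the spread between plates, or left a count within 1.5 times. This tally includes the median level, which was 0% under every alternative because most members had no promoter feature. The mean level of 1.24% was judged against a wide spread between plates, 0.444. A value of 0.867%, with features seen in at least 5 cells, therefore counted as unchanged. In all 6 alternatives for promoter coverage and all 9 for the mean level, ZNF genes stayed above the other genes of chromosome 19. Coverage of ZNF genes was 46.7% with any annotated transcript start (31.4% for the other genes) and 19.6% with features seen in at least 5 cells (12.1%). Thinning to 600 read pairs gave a mean level of 0.320% and a median of 0 members per nucleus, and any annotated start gave a median of 2. Gene body density was 0.536 per 100 kb without features near any annotated transcript start (0.786 for the other genes), 0.497 with features seen outside the paired wells and 0.261 with features seen in at least 5 cells, where the order of the gene sets turned. Last exon density of the members was 0.120 per 100 kb, from 1 feature, under each of the last 2 filters. For the other genes it was 1.71 with features seen outside the paired wells and 0.742 with features seen in at least 5 cells. The order of the gene sets for last exons therefore did not turn. The median number of nuclei per body feature was 3, and it was 1 without the paired wells, 1 after thinning, 2 without features near any annotated start and 2 without ZNF536. The share of body features seen in at least 10 nuclei was 3.23%, and it was 0 without the paired wells, after thinning and without features near any annotated start. Of the members' promoter features, 2 differed at least 2-fold between plates without cells 79 and 80 of plate 1, against 6 with them. The alternatives without these 2 cells, without ZNF536, and for coverage and runs without the paired wells were chosen after seeing the data. With features seen in at least 20 nuclei or without the paired wells, no member's feature could enter the plate comparison. With a gap of 250 kb, 29 runs formed, the run of ZNF724 held 14 genes, 28.6% of them with a promoter feature, and its mean was 2.20% of nuclei. No paired analysis was possible because no result came from a test and the cell numbers of the 2 plates name separate nuclei. The depth limits the levels of single genes: genes seen in 1 to 17 nuclei have intervals that overlap with many others.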
